A study of Homo sapiens with 8 samples.

Results

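The polypyrimidine tract binding proteins are a family of RNA-binding splicing regulators, encoded in these data by 3 genes, PTBP1, PTBP2 and PTBP3, of 60624 Ensembl genes listed and 18661 tested. PTBP2 was chosen by a measured value, its higher RNA level in cells treated with indisulam, so that its values with indisulam against untreated cells are given as a description, without a test. PTBP1 and PTBP3 entered by family name. All 3 genes passed the filter on low counts, with at least 776 counts in every library.

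The data came from A549, an established human lung adenocarcinoma cell line, in 4 groups of 2 libraries each. The cells were untreated, treated with indisulam, treated with SPHINX31, or treated with both compounds, called the combination. Indisulam is a molecular glue that brings the splicing factor RBM39 to a ubiquitin ligase for degradation, and SPHINX31 inhibits SRPK1, a kinase of SR splicing factors. The study's methods for this A549 experiment give 0.5 µM indisulam and 5 µM SPHINX31 for 24 h. The labels of the libraries give 2 µM indisulam and 18 h. Those are the values that the methods give for a separate experiment in pancreatic cancer cells. For A549 the study gives only the former values, and the labels were not reconciled with them here. The libraries of a group were technical replicates of 1 cell line, so that p-values measure only technical spread and not the variation between independent treatments.

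PTB proteins bind pyrimidine-rich RNA, typically in introns near alternative exons, and most often repress those exons. PTBP1 is made in most dividing cells, PTBP2 (also called nPTB) is known for its rise when neural precursors leave the cell cycle, and PTBP3 (formerly ROD1) is best known from blood cells. The family holds itself in check, since PTBP1 can cause skipping of a short exon in its own transcripts and in those of PTBP2, and the shifted reading frame then sends the transcript to nonsense-mediated decay. In non-neuronal cells this keeps PTBP2 low.

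That exon is shown here because PTBP1 is known to act on it in its own transcripts and in those of PTBP2. The PTBP3 exon of the same length is shown for comparison. The exon is 34 bases long in each MANE Select transcript, a length that is no multiple of 3. The GRCh38 positions are chr19:807869-807902 on the plus strand for PTBP1, where it is exon 11 of 15, chr1:96806419-96806452 on the plus strand for PTBP2, where it is exon 10 of 14, and chr9:112231380-112231413 on the minus strand for PTBP3, where it is exon 10 of 14. In each line the 100 intron bases before the exon are in lower case and capitals mark the exon, read 5′ to 3′ on the strand of the gene.
PTBP1: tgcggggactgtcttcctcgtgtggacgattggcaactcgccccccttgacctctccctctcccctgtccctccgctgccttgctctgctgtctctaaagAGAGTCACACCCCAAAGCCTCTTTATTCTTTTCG
PTBP2: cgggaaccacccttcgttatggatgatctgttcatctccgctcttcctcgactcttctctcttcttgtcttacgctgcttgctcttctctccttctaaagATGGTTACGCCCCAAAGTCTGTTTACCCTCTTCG
PTBP3: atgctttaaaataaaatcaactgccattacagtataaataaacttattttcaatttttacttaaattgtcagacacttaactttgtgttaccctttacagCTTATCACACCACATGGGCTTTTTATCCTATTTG

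The exon itself had 25 of 34 bases identical between PTBP1 and PTBP2, 22 between PTBP1 and PTBP3 and 21 between PTBP2 and PTBP3. Aligned coding sequences shared 67.8%, 71.0% and 71.4% of bases for the same pairs. Only between PTBP1 and PTBP2 was the exon more alike than the coding sequence as a whole. The introns before it were compared only by pyrimidine content and short motifs, not base by base. Pyrimidines made up 73% of the 100 intron bases in PTBP2, 69% in PTBP1 and 56% in PTBP3, against a median of 55% before 163841 internal exons of MANE Select transcripts. Windows at least as rich as those of PTBP2, PTBP1 and PTBP3 made up 1.53%, 4.1% and 47.9% of all such windows. The letters TCTT, a core that PTB proteins bind, occurred 6 times before the PTBP2 exon, 1 time before the PTBP1 exon and 0 times before the PTBP3 exon, counted on the strand of the gene with overlaps allowed. Of all such windows, 61.2% held TCTT at least 1 time and 0.16% held it 6 times or more. The longer CTCTCT, which can overlap TCTT only partly, occurred 1 time before the PTBP2 exon and in neither of the other windows, and 8.96% of all windows held it. These matches describe the sequence alone, since the counts analysed do not resolve exons or protein binding. GENCODE lists 4 transcripts of PTBP2 as targets of nonsense-mediated decay, of which 3 lack the exon, 4 of PTBP1, of which 2 lack it, and 0 of PTBP3.

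The 3 genes are no near-identical copies, since their aligned coding sequences shared 67.8% of bases between PTBP1 and PTBP2, 71.0% between PTBP1 and PTBP3 and 71.4% between PTBP2 and PTBP3. The PTBP1 pseudogene PTBP1P held at most 1 count in any library. Depth lay between 51727369 and 63186989 counts on genes per library. The 6 epithelial markers summed to 8496 CPM or more in every library, most of it from KRT7, KRT8 and KRT18. The adhesion genes were lower, EPCAM at 25.4 to 33.6 CPM and CDH1 at 70.5 to 106 CPM. The A549 metabolic genes were high in every library. The lung lineage genes NKX2-1, NAPSA, SFTPB and SFTPC together stayed at 1.22 CPM or below, with SFTPB at 0. CPM are counts scaled to a common depth, here with TMM-adjusted library sizes. Immune markers summed to 0.245 CPM at most, endothelial markers to 2.51 CPM and fibroblast markers to 4.87 CPM. RBM39 RNA rose with indisulam, from 155 ± 2.04 to 361 ± 0.648 CPM (SD, n = 2), by 1.22 on the log2 scale (SE 0.0553, adjusted p = 5.41e-09, edgeR's quasi-likelihood test). The RNA of SRPK1 fell by 0.33 on that scale with indisulam (-0.33, SE 0.0555, adjusted p = 0.000342) and differed by -0.04 with SPHINX31 (adjusted p = 0.683). Both compounds act on proteins, so that these RNA values do not measure target engagement.

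PTBP2, on chr1:96721665-96823738, was the member with the largest fold changes. In the untreated libraries it stood at 14.8 and 15.1 CPM, from 913 and 899 counts. In the indisulam libraries it stood at 67.0 and 69.0 CPM, from 3895 and 3518 counts. In the SPHINX31 libraries it stood at 14.3 and 15.2 CPM, and in the combination libraries at 71.3 and 73.6 CPM. The 4 libraries with indisulam lay far above the 4 without it, and no library lay between, in a gene chosen for its rise with indisulam. In bulk RNA, more cells with PTBP2 and more PTBP2 RNA per cell cannot be told apart. The group means were 14.9 ± 0.215 CPM untreated, 68.0 ± 1.46 with indisulam, 14.7 ± 0.594 with SPHINX31 and 72.4 ± 1.62 in the combination (SD, n = 2). The log2 fold change with indisulam against untreated was 2.19, or 4.56-fold, and with the combination against untreated 2.28, or 4.85-fold; the first is the value on which the gene was chosen, the second shares its untreated libraries, and neither was tested. The same holds for PTBP2 in every other comparison that uses the untreated or the indisulam libraries.

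**Figure D1:**
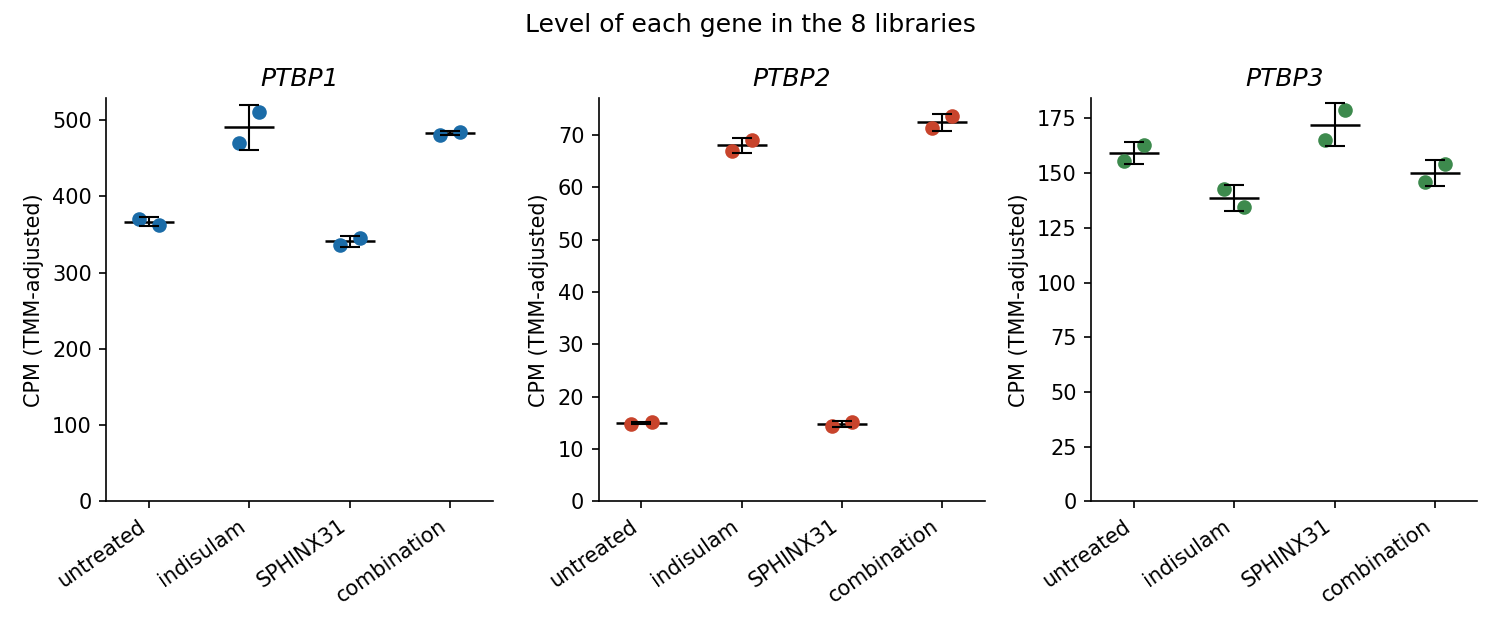
CPM of PTBP1, PTBP2 and PTBP3 (vertical axes from 0, a scale for each gene) in the 2 libraries of each group (points), with the group mean (line) and SD (bars). PTBP2 lies at 15.2 CPM or below in the libraries without indisulam and at 67.0 CPM or above in those with it, PTBP1 moves the same way by less, and PTBP3 lies lowest in the indisulam libraries.

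The 4 libraries with SPHINX31 were not in the comparison of indisulam with untreated cells that chose PTBP2. They do share its experiment and its compound, and the tests were chosen with earlier results of these data known. The p-value of PTBP2 is therefore no independent evidence for its rise. These libraries asked what indisulam did in the presence of the kinase inhibitor. PTBP2 rose there by 2.30 on the log2 scale (SE 0.0599, 95% interval 2.17 to 2.42), a 4.91-fold difference with an adjusted p of 7.37e-11 (edgeR's quasi-likelihood test, Benjamini-Hochberg over 18661 genes). PTBP1 rose by 0.50 (SE 0.0504, interval 0.39 to 0.61, adjusted p = 2.94e-06). PTBP3 fell by 0.20 (-0.20, SE 0.0568, interval -0.32 to -0.08, adjusted p = 0.0105). Calls were frequent in this comparison, with 23.4% of the tested genes called higher and 26.5% called lower, so that being called did not set the family apart. Of the other 9979 tested genes with a mean log2 CPM of at least 3, 0 had a higher fold change than PTBP2, whereas 420 had a higher one than PTBP1. Among all tested genes, 115 had a higher fold change than PTBP2. With indisulam against untreated, the comparison that chose PTBP2, 0 genes at that mean level were higher as well. Its rank here thus follows its choice and does not set the family apart.

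**Figure D2:**
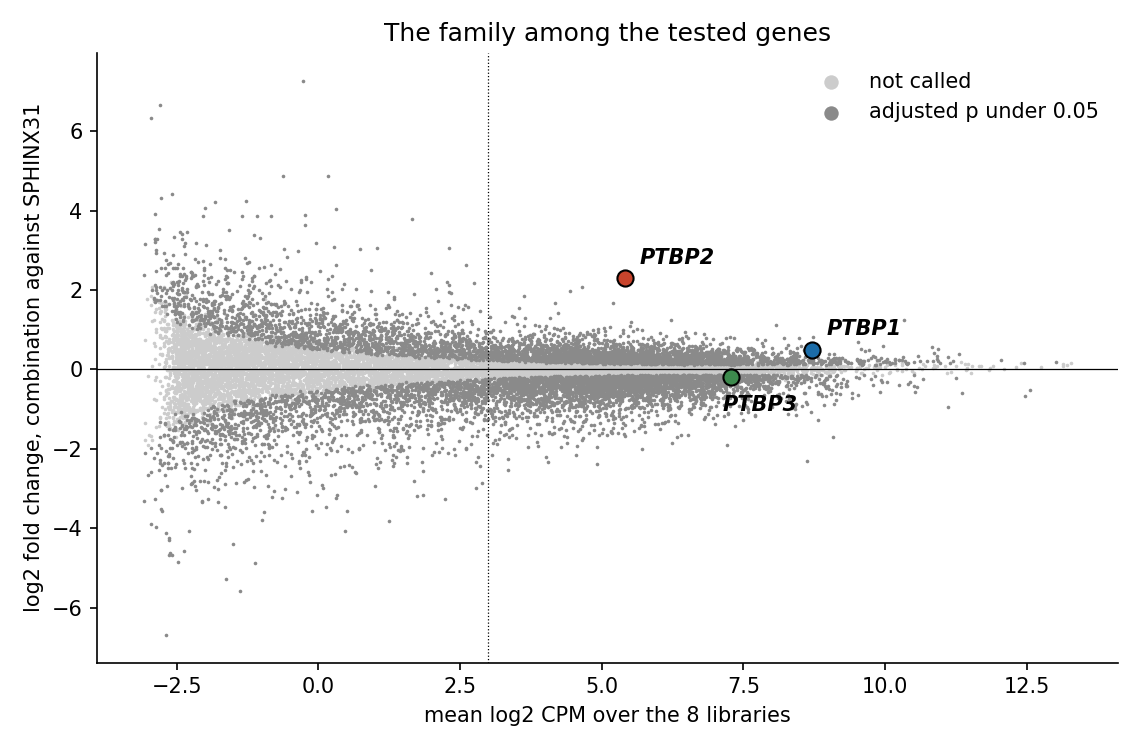
Log2 fold change of the combination against SPHINX31 (vertical axis) by mean log2 CPM over the 8 libraries (horizontal axis) for 18661 tested genes, dark where the adjusted p was under 0.05, with the 3 family members marked. PTBP2, at 2.30, stands above every gene to the right of the dotted line at a mean log2 CPM of 3, while PTBP1 at 0.50 and PTBP3 at -0.20 lie within the cloud.

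PTBP1, on chr19:797075-812327, is the general splicing repressor of the family and was its most abundant member. It stood at 371 and 363 CPM in the untreated libraries and at 470 and 511 CPM in the indisulam libraries. It stood at 336 and 346 CPM with SPHINX31 and at 481 and 485 CPM in the combination. The libraries with indisulam were again all above those without it, and how many tested genes show this order was not counted. With indisulam alone PTBP1 rose by 0.42 on the log2 scale (SE 0.0504, interval 0.31 to 0.53, adjusted p = 1.96e-05), or 1.34-fold, in a comparison in which 20.1% of the tested genes were called higher and 23.5% lower. With the combination against untreated it rose by 0.40 (adjusted p = 2.27e-05), where 23.8% of genes were called higher and 26.3% lower. Of the 9980 tested genes with a mean log2 CPM of at least 3, 551 had a higher fold change than PTBP1 with indisulam.

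PTBP3, on chr9:112217716-112333664 and the paralog with the intermediate CPM, went the other way. It stood at 156 and 163 CPM untreated and at 143 and 134 CPM with indisulam. It stood at 165 and 179 CPM with SPHINX31 and at 146 and 154 CPM in the combination. The indisulam libraries were below the untreated ones and the combination libraries below the SPHINX31 ones, orders whose share over tested genes was not counted. The combination and untreated libraries were close, at 154 and 156 CPM at their nearest. PTBP3 fell by 0.20 on the log2 scale with indisulam (-0.20, SE 0.0569, interval -0.32 to -0.08, adjusted p = 0.0119). Both calls were lost when certain single libraries were left out: without untreated replicate 2 the value was -0.17 (adjusted p = 0.107), without indisulam replicate 2 -0.15 (adjusted p = 0.116), and for the combination against SPHINX31 it was -0.13 without SPHINX31 replicate 2 (adjusted p = 0.114) and -0.15 without combination replicate 1 (adjusted p = 0.117). Against untreated cells the combination differed by -0.09 (interval -0.21 to 0.04, adjusted p = 0.230).

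With SPHINX31 alone, where 4.94% of the tested genes were called higher and 3.67% lower, neither PTBP1 nor PTBP3 was called. PTBP2 differed by -0.02 on the log2 scale, a description without a test. The PTBP1 difference was -0.11 (interval -0.21 to 0.00, adjusted p = 0.220). The PTBP3 difference was 0.11 (interval -0.01 to 0.24, adjusted p = 0.246), in the opposite direction.

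Adding SPHINX31 to indisulam likewise left PTBP1 and PTBP3 uncalled, where 3.17% of genes were called higher and 4.32% lower. PTBP2 was 0.09 higher in the combination than with indisulam, again without a test. The differences were -0.02 for PTBP1 (interval -0.13 to 0.09, adjusted p = 0.845) and 0.11 for PTBP3 (interval -0.01 to 0.24, adjusted p = 0.264). The interaction asks whether both compounds together did more than their separate log2 fold changes, added up, would give. It was 0.11 for PTBP2, where it was not tested because it contains the value that chose the gene, 0.08 for PTBP1 (interval -0.07 to 0.24, adjusted p = 0.775) and 0.00 for PTBP3 (interval -0.17 to 0.17, adjusted p = 0.998). By edgeR 0% of the tested genes were called for an interaction, with 1584 genes at an unadjusted p under 0.05, and DESeq2 called 31. For PTBP1 and PTBP3, departures from additivity beyond 0.24 on the log2 scale lay outside the intervals.

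**Figure D3:**
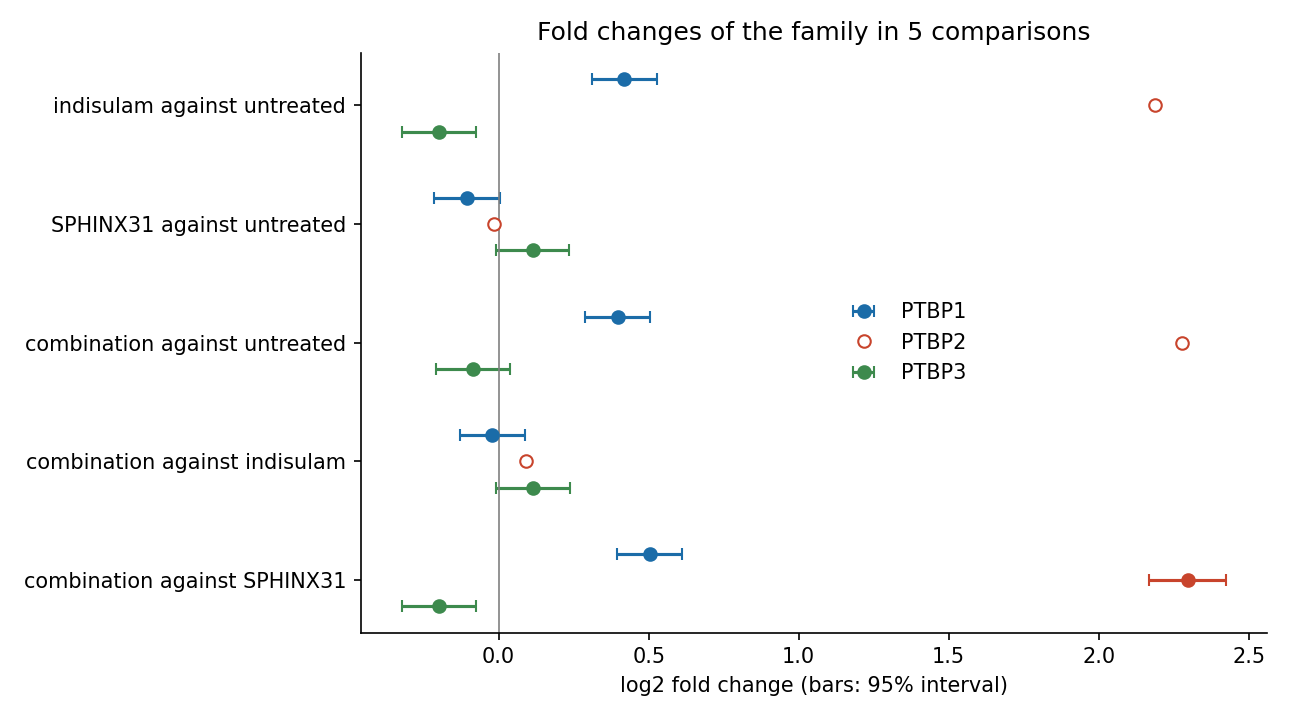
Log2 fold changes (horizontal axis) of the 3 genes in 5 comparisons (rows), as points with 95% intervals; open points are the PTBP2 values that chose the gene or share its untreated or indisulam libraries, drawn without an interval. In the 3 comparisons that add indisulam PTBP2 lies between 2.19 and 2.30 and PTBP1 between 0.40 and 0.50, while in both comparisons that add SPHINX31 the intervals of PTBP1 and PTBP3 include 0.

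To set the members against each other, CPM were divided by the length of all annotated exons of a gene in kilobases, 7521 bases for PTBP1, 20122 for PTBP2 and 8236 for PTBP3. On this scale PTBP1 stood at 48.8 ± 0.776 CPM per kilobase untreated and 65.2 ± 3.89 with indisulam (SD, n = 2). PTBP3 stood at 19.3 ± 0.630 and 16.8 ± 0.712, and PTBP2 at 0.742 ± 0.0107 and 3.38 ± 0.0725. The order PTBP1, PTBP3, PTBP2 held in all 8 libraries, with gaps wider than the spread between replicates. Although PTBP2 had the larger fold change, PTBP1 gained more in level: 16.5 CPM per kilobase with indisulam (SE 2.81) against 2.64 (SE 0.0518). The summed level of the family was 68.9 ± 0.136 CPM per kilobase untreated, 85.4 ± 3.25 with indisulam, 67.0 ± 2.15 with SPHINX31 and 86.1 ± 1.18 in the combination.

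PTBP2 made up 1.08 ± 0.0177% of that sum in untreated cells and 3.96 ± 0.0657% with indisulam. Its share was 1.09 ± 0.00892% with SPHINX31 and 4.18 ± 0.0366% in the combination. PTBP1 made up 70.8 ± 0.988% untreated and 76.3 ± 1.65% with indisulam, and PTBP3 28.1 ± 0.970% and 19.7 ± 1.58%. With these lengths the shares of PTBP1 and PTBP2 were higher and that of PTBP3 lower in the indisulam libraries, and the direction for PTBP1 turned with MANE Select lengths. PTBP1 drew 25.1 and 24.1 counts for each PTBP2 count in the untreated libraries and 23.5 and 22.8 with SPHINX31. With indisulam the ratio was 7.02 and 7.41, and in the combination 6.75 and 6.59. This ratio needs no gene length and no scaling between libraries. Its values with and without indisulam lay apart, but it rests on PTBP2, which was chosen for its rise. How many other pairs of genes separate the libraries this way was not counted.

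The absolute shares depended on the length taken for PTBP2, whose annotated exons are far longer than its MANE Select transcript of 3321 bases. With MANE Select lengths the PTBP2 share was 3.19% untreated and 10.6% with indisulam. The PTBP1 share was then lower with indisulam, at 79.4 ± 1.13% against 81.1 ± 0.696% untreated (SD, n = 2), and the order of the lower pair turned: PTBP2 exceeded PTBP3 in the indisulam libraries, at 20.2 against 19.8 and 20.8 against 18.7 CPM per kilobase, and in the combination libraries, at 21.5 against 20.3 and 22.2 against 21.5. The use of alternative transcript ends was not measured, so that which length matches the transcripts of A549 was not tested. Shares and ratios were given no test, since 2 libraries against 2 cannot go below p = 0.333 in an exact two-sided permutation test, and the PTBP2 change they rest on chose the gene.

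**Figure D4:**
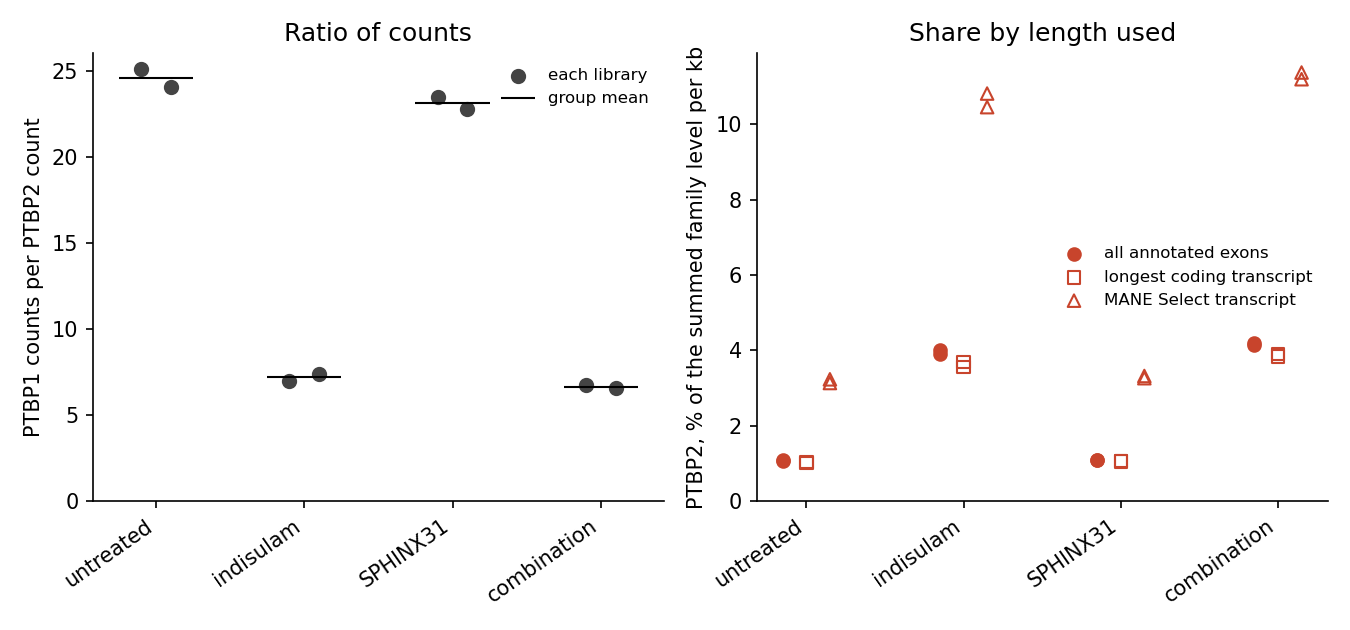
Left, PTBP1 counts per PTBP2 count in each library (points) with the group mean (line). Right, PTBP2 as a percentage of the summed family level per kilobase in each library, by the gene length used. Both vertical axes start at 0. The ratio lies at 22.8 or above without indisulam and at 7.41 or below with it, and the share lies near 1% or 4% with all annotated exons and at 3.19% and 10.6% on average, untreated and with indisulam, with MANE Select lengths.

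The changes of the family were set beside those of the nearest tested genes, 3 on each side. With indisulam 20.1% and 23.5% of all tested genes were called higher and lower. Around PTBP2 no neighbour changed by as much as PTBP2 itself, whose log2 fold change with indisulam was 2.19. DPYD, which breaks down pyrimidines and begins 254005 bases beyond PTBP2, fell with indisulam from 10.7 ± 0.370 to 5.97 ± 0.259 CPM (-0.84, SE 0.0929, adjusted p = 9.76e-06). SNX7, a sorting nexin 1837963 bases away, rose by 0.33 (SE 0.0567, adjusted p = 0.000372). RPL7P9 (0.38, adjusted p = 0.0612), EEF1A1P11 (0.14), SEC63P1 (0.29) and ENSG00000271252 (-0.36) were not called. SEC63P1 had 10 to 31 counts per library and ENSG00000271252 2 to 14, too few to show the lack of a change. Around PTBP1 none of the 6 neighbours was called with indisulam, including MISP at 0.09 (adjusted p = 0.36). PLPPR3 begins 161 bases after PTBP1 and was at 0.738 CPM or below in the untreated and indisulam libraries. Counts were also low for ENSG00000272473 (25 to 43 per library), PRTN3 (25 to 44) and AZU1 (1 to 14). For these low genes the lack of a call says little. Around PTBP3, HSDL2, a peroxisomal dehydrogenase-like gene 46416 bases away, fell by 0.69 (-0.69, SE 0.0572, adjusted p = 7.22e-07) and UGCG, the glucosylceramide synthase gene, rose by 0.23 (SE 0.0672, adjusted p = 0.0139). The other 4 neighbours of PTBP3 were not called.

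Likeness of profile was taken as the Euclidean distance over the 3 log2 fold changes against untreated cells. It was measured to 9975 other annotated genes with a mean log2 CPM of at least 3. The nearest genes lay closer to PTBP1 and PTBP3 than to PTBP2. RRAGB, a Rag GTPase of the amino acid sensing pathway, was nearest to PTBP2 at a distance of 0.289. It stood at 8.53 and 8.42 CPM untreated, 34.4 and 34.5 with indisulam, 8.62 and 9.23 with SPHINX31 and 35.2 and 35.5 in the combination. The next genes were AMH at 0.949, SEC31B at 0.989, ZNG1B at 1.15 and ZNF557 at 1.15. The 5 genes nearest to PTBP1 lay within 0.0324 (SRSF4, AMD1, PDE5A, NXT2 and HMBOX1), and those nearest to PTBP3 within 0.0322 (CEP112, DENND1A, CFLAR, TNRC18 and DVL1). SRSF4 encodes an SR splicing factor whose own transcripts carry a decay-coupled exon. The distances of large fold changes are wider by construction, and no test was made of them.

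Other genes of the PTB network were taken from 7 lists. Of 17 splicing regulators whose genes carry exons coupled to nonsense-mediated decay, 13 rose and 1 fell with indisulam, 3 were not called, and the median log2 fold change was 0.30 against -0.0041 over all tested genes, of which 20.1% were higher and 23.5% lower. SRSF1, an SR protein, rose from 75.4 ± 0.828 to 129 ± 2.02 CPM (0.78, SE 0.0514, adjusted p = 1.02e-07). HNRNPL, an RNA-binding repressor related to PTB, rose from 299 ± 0.0446 to 457 ± 14.7 CPM (0.61, SE 0.0480, adjusted p = 4.57e-07). TRA2A, a splicing activator, rose by 0.58 (SE 0.0522, adjusted p = 1.59e-06), and RBM39 itself is on the list. SRSF6 was the member that fell (-0.21, adjusted p = 0.00406). In the combination against SPHINX31 the list again held 13 higher and 1 lower member, beside 23.4% and 26.5% of all tested genes, with a median of 0.42. With SPHINX31 alone, beside 4.94% and 3.67% of all tested genes, 0 rose and 2 fell, SRSF2 (-0.26, adjusted p = 0.0419) and HNRNPA2B1 (-0.23, adjusted p = 0.0193), and this count ranged from 0 to 4 when a library was left out.

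Among 14 partners and relatives of the PTB proteins, 6 rose, 1 fell and 7 were not called with indisulam, beside 20.1% and 23.5% of all tested genes called higher and lower, with a median of 0.07. RAVER2, an adaptor that binds PTB, rose from 28.4 ± 1.19 to 39.2 ± 0.610 CPM (0.46, SE 0.0648, adjusted p = 7.19e-05), whereas its paralog RAVER1 differed by -0.05 (adjusted p = 0.74). HNRNPLL, an HNRNPL paralog, rose by 0.33 (SE 0.0570, adjusted p = 0.000369). MATR3, a nuclear matrix protein that works with PTB, had 81 to 217 counts per library and a value of 0.82 (SE 0.159, adjusted p = 0.00100), which is uncertain because the annotation holds 2 overlapping models of the gene and reads that fall on both are not assigned to either. SFPQ was the member that fell (-0.16, adjusted p = 0.0301). HNRNPK, HNRNPA1, KHSRP, PCBP2, CELF1 and MBNL1 were not called. In the combination against SPHINX31, 6 rose and 0 fell, beside 23.4% and 26.5% of all tested genes, with a median of 0.07. With SPHINX31 alone 0 were called, beside 4.94% and 3.67% of all tested genes called higher and lower.

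Genes with exons known to be repressed by PTBP1 were read here only for their total level. Of 18 listed 17 were tested, and 1 rose, 5 fell and 11 were not called with indisulam, beside 20.1% and 23.5% of all tested genes called higher and lower, with a median of -0.11. The tropomyosin gene TPM1 fell from 235 ± 6.86 to 158 ± 13.2 CPM (-0.57, SE 0.0574, adjusted p = 4.37e-06), and ACTN1 (alpha-actinin) and FLNA (filamin A) fell by 0.44 and 0.39 on the log2 scale (-0.44, adjusted p = 5.58e-06, and -0.39, adjusted p = 2.52e-05). The tropomyosin gene TPM2 rose by 0.32 (SE 0.0462, adjusted p = 9.03e-05). In the combination against SPHINX31 4 rose and 4 fell, shares close to the 23.4% and 26.5% of all tested genes, with a median of -0.08. With SPHINX31 alone, beside 4.94% and 3.67% of all tested genes, 0 rose and 4 fell, TPM1 (-0.20, adjusted p = 0.0472), PKM (-0.18, adjusted p = 0.0244), FLNA (-0.20, adjusted p = 0.0193) and FGFR1 (-0.17, adjusted p = 0.0453), and 0 to 3 members were called when a library was left out. Exon inclusion in these genes was not analysed here.

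Of 15 factors of nonsense-mediated decay and the exon junction complex, 4 rose, 3 fell and 8 were not called with indisulam, with a median of 0.09, and these shares were close to the 20.1% and 23.5% of all tested genes called higher and lower. SMG1, the kinase of UPF1, fell from 160 ± 19.8 to 129 ± 15.6 CPM (-0.31, SE 0.0873, adjusted p = 0.0103). RNPS1 and CASC3, both of the exon junction complex, each rose by 0.28 (adjusted p = 0.000512 and 0.000487). UPF1 itself differed by -0.10 (adjusted p = 0.147). In the combination against SPHINX31 the list held 4 higher and 3 lower members, beside 23.4% and 26.5% of all tested genes, with a median of -0.03. Calls with SPHINX31 alone numbered 0, beside 4.94% and 3.67% of all tested genes called higher and lower. Across the alternatives other than leaving out a library this number ranged from 0 to 3, or 4 with the replicate numbers exchanged. Without 1 library the count with indisulam ranged from 4 to 8, and it was lower by over 1.5 times without untreated replicate 1, untreated replicate 2 or indisulam replicate 2.

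In neurons PTBP1 is reduced by miR-124, whose genes REST represses. MIR124-1HG, a host gene of miR-124, had 0 counts in all 8 libraries, which at a floor of 3 counts allows up to 0.0588 CPM in the shallowest library, for counting error only. Of the 8 tested genes of the REST and miR-124 circuit 0 rose and 1 fell with indisulam, beside 20.1% and 23.5% of all tested genes called higher and lower: CTDSP1, a phosphatase that acts with REST (-0.28, SE 0.0682, adjusted p = 0.00486), a call lost without untreated replicate 1. REST differed by 0.02 (adjusted p = 0.860), and the list median was -0.01. CTDSP1 was also the 1 gene called in the combination against SPHINX31 (-0.47, adjusted p = 8.16e-05), beside 23.4% and 26.5% of all tested genes. The list median there was -0.02. With SPHINX31 alone 0 were called, beside 4.94% and 3.67% of all tested genes called higher and lower.

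Of 15 splicing regulators listed as enriched in neurons 10 were tested. With indisulam 3 rose, 2 fell and 5 were not called, with a median of -0.06. Of all tested genes, 20.1% and 23.5% were called higher and lower. RBFOX3, the neuronal antigen NeuN, fell from 12.3 ± 0.468 to 4.64 ± 0.627 CPM (-1.41, SE 0.0989, adjusted p = 1.68e-07). Its paralog RBFOX2 rose by 0.31 (SE 0.0511, adjusted p = 0.000297). At 110 ± 3.37 CPM in untreated A549 cells, RBFOX2 was not confined to neurons. NOVA1 fell by 0.19 on the log2 scale (-0.19, adjusted p = 0.0366). CELF3 and ELAVL2 rose, by 1.44 (adjusted p = 0.00284) and 1.22 (adjusted p = 0.0137), from mean levels of 0.214 and 0.156 CPM. In the combination against SPHINX31 the same numbers, 3 and 2, rose and fell, beside 23.4% and 26.5% of all tested genes. The median there was 0.10. SPHINX31 alone called 0, beside 4.94% and 3.67% of all tested genes called higher and lower. Leaving out a library took the count with indisulam to 3 at the lowest, without untreated replicate 2 or indisulam replicate 1, and that in the combination against SPHINX31 to 2 (without SPHINX31 replicate 1 or combination replicate 1) or 3 (without SPHINX31 replicate 2).

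Of 13 neuronal genes 11 were tested, and 4 rose, 1 fell and 6 were not called with indisulam, beside 20.1% and 23.5% of all tested genes called higher and lower, with a median of 0.22. SNAP25, a synaptic fusion protein, rose from 10.2 ± 0.0681 to 16.1 ± 0.746 CPM (0.66, SE 0.0737, adjusted p = 1.08e-05). TUBB3, a neuronal tubulin, rose by 0.50 from 2.48 ± 0.0653 CPM (adjusted p = 0.0105), SYT1, a calcium sensor of synaptic vesicles, by 0.32 (adjusted p = 0.0191) and DCX, a microtubule protein of migrating neurons, by 0.43 (adjusted p = 0.0469). MAPT, which encodes tau, fell by 0.23 on the log2 scale (-0.23, adjusted p = 0.0476). In the combination against SPHINX31 4 rose and 0 fell, beside 23.4% and 26.5% of all tested genes, with a median of 0.16. They were SNAP25 (0.62, adjusted p = 1.48e-05), DCX (0.68, adjusted p = 0.00877), TUBB3 (0.40, adjusted p = 0.0267) and NCAM1 (0.31, adjusted p = 0.0238). DCX had 38 to 97 counts per library, and in the combination against untreated it differed by -0.09 (adjusted p = 0.697). With SPHINX31 alone, beside 4.94% and 3.67% of all tested genes, 2 rose, SYT1 (0.55, adjusted p = 0.00381) and MAP2 (0.31, adjusted p = 0.0440), and 1 fell, DCX (-0.77, adjusted p = 0.0209), a count of 3 that was 0 without untreated replicate 1 and 1 without SPHINX31 replicate 2. The count with indisulam was 2 or 3 without any 1 of the 8 libraries. The neuron markers RBFOX3, SNAP25, SYT1 and STMN2 summed to between 28.9 and 34.3 CPM over all libraries, with overlapping ranges for untreated cells (30.0 to 30.2) and indisulam (28.9 to 31.4), and STMN2 had 0 counts in all of them. This sum holds members that moved in opposite directions, RBFOX3 down and SNAP25 and SYT1 up with indisulam, so that it does not show stable levels.

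**Figure D5:**
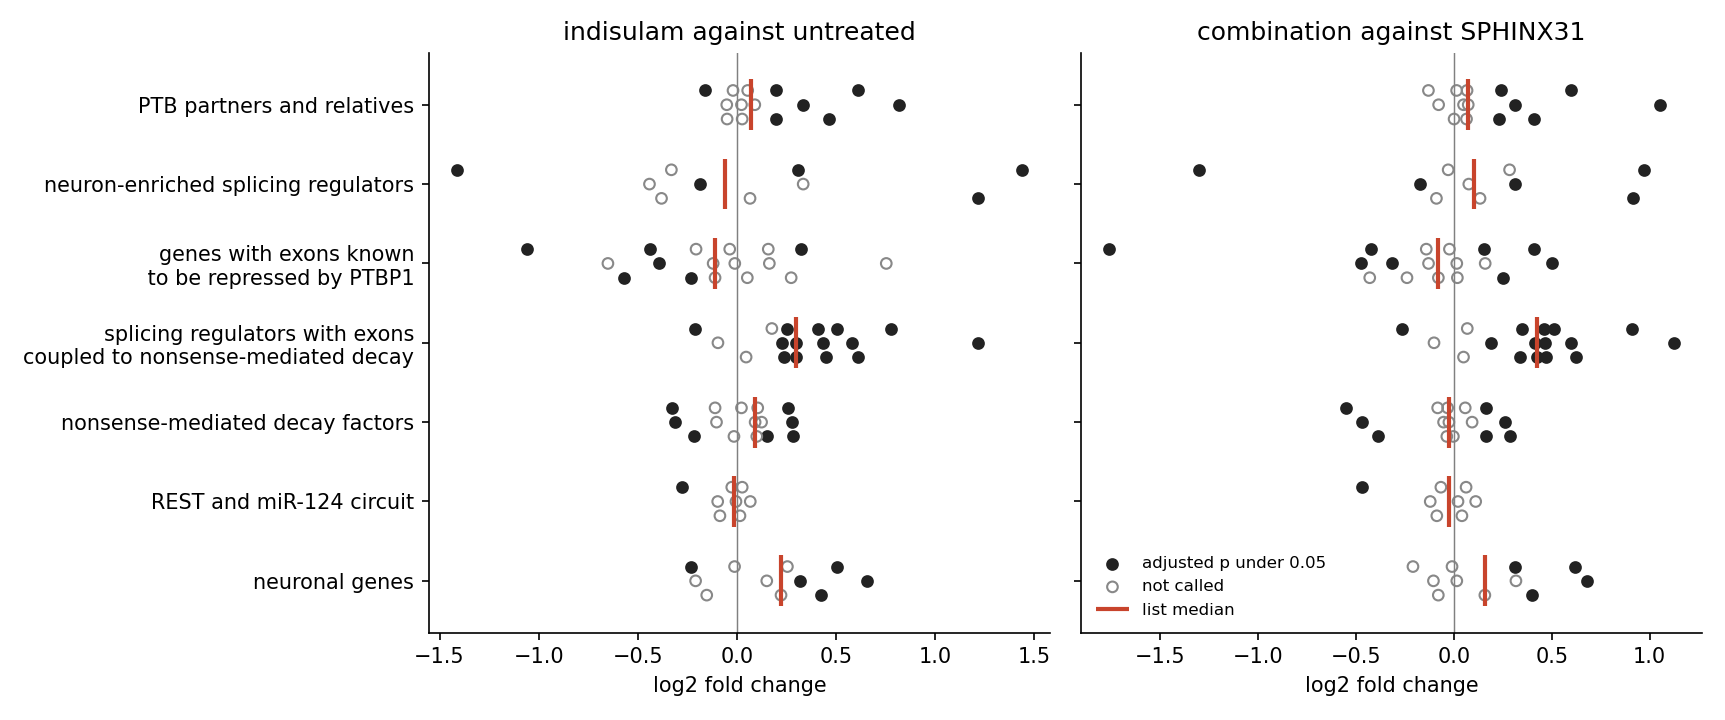
Log2 fold changes (horizontal axes) of the tested genes of the 7 lists (rows) with indisulam against untreated (left) and the combination against SPHINX31 (right), filled where the adjusted p was under 0.05, with the list median as a vertical line. The splicing regulators with exons coupled to nonsense-mediated decay lie mostly to the right of 0, with medians of 0.30 and 0.42, and the other medians lie between -0.11 and 0.22 in both comparisons.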

How the data were processed

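Polyadenylated RNA of 8 A549 libraries had been sequenced by the authors as stranded paired-end reads of 150 bp. Per the labels, the processing notes name HISAT2 2.2.1, HTSeq and GRCh38, while the counting options, strand setting and annotation are not given in the sources used here. The deposited values are raw counts per Ensembl gene, with the unassigned reads by chromosome (13.996% to 17.045% of a library), which were left out. That share was 15.501% or above in the libraries with indisulam and 15.106% or below in those without it. Whether this difference bears on the comparisons was not tested.

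Counts were fitted in R 4.3.3 with edgeR 4.0.16 (filterByExpr, TMM, quasi-likelihood F-test, all 8 libraries in 1 fit, 4 residual degrees of freedom), with Benjamini-Hochberg adjustment over 18661 genes and a threshold of 0.05, after tests on simulated data. The 2 libraries of a group differed beyond sampling noise (chi-square per degree of freedom 7.15 to 11.5), so that none was a copy. Intervals and SE cover counting error and technical spread only. Symbols, positions and lengths came from GENCODE 44, which covered 99.7% of tested genes, and sequences from GRCh38.

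The members, the 7 lists and the tests were chosen with earlier results of these data known, and the lists are no independent evidence. Named are the members, the targets RBM39 and SRPK1, up to 4 members of each list with the largest absolute fold change among those called with indisulam and with a mean log2 CPM of at least 1, called members where a comparison had at most 5, the 3 nearest tested genes on each side and the 5 nearest profiles. SRSF6, SFPQ, RAVER1, UPF1, REST, DCX, CELF3 and ELAVL2 and the uncalled members named in passing were added after their values were seen. A gene that met the rule is not reported here. The alternatives were RLE factors, total counts alone, DESeq2 1.42.0, filters of at least 1 count in any or 10 in every library, only the libraries compared, a replicate block, leaving out each library and other gene lengths; MANE Select lengths and exchanged replicate numbers were added after seeing the data.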

Additional observations from a re-analysis of the deposited data

How the results depend on the processing

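Of 285 values of the 3 genes under the alternatives, 279 stayed on their side of the threshold or, where PTBP2 had no test, moved by less than the spread between replicates. With total counts alone the PTBP2 difference was 2.33 for the combination against untreated cells and 0.14 for the combination against indisulam. The sign differed in 11 of the 285 values, all 0.0475 or less from 0 and none called: PTBP2 with SPHINX31, PTBP1 for the combination against indisulam (each 0.02 with total counts alone) and the PTBP3 interaction. Where a library was left out, the lone library of its group was assumed to vary like the other groups. Without 1 library, PTBP3 ranged from -0.24 to -0.15 with indisulam and from -0.24 to -0.13 for the combination against SPHINX31, each with 2 libraries whose loss ended the call. PTBP2 ranged from 2.27 to 2.35 for the combination against SPHINX31, and the other tested values of the family stayed on their side of the threshold. The PTBP2 share with the longest protein-coding transcript was 1.03% untreated, 3.63% with indisulam, 1.07% with SPHINX31 and 3.87% in the combination, and with MANE Select 3.19%, 10.6%, 3.29% and 11.3%; the lengths themselves set these values.

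The replicate numbers did not pair the libraries: same-numbered deviations correlated at -0.569 to 0.455 over the 6 pairs of groups. A replicate block gave PTBP2 2.30 for the combination against SPHINX31 and changed no call of the 3 genes. With the indisulam numbers exchanged in the block, 2630 genes were called with SPHINX31 and 2252 for the combination against indisulam, against 1606 and 1399 without a block.

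Leaving out a library lowered those 2 counts to 482 (without untreated replicate 1) and 440 (without combination replicate 2). For the interaction 0 genes were called, 31 by DESeq2 and 94 with the filter of 1 count. Counts for neuronal genes with indisulam (5) fell to 3 by DESeq2, and for the combination against SPHINX31 (4) to 1; for neuron-enriched splicing regulators they were 3 and 2 by DESeq2, against 5 and 5. With SPHINX31, where list counts are small, 30 of 112 list counts differed by over 1.5 times from those above, and 19 and 9 of 112 with indisulam and for the combination against SPHINX31. PTBP2, the shallowest of the 3 genes, had at least 776 counts per library, whereas lists hold genes at under 1 CPM, such as CELF3 and ELAVL2.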
